A study of Caenorhabditis elegans with 8 samples.

Results

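The proteasome is the protease complex that destroys ubiquitin-tagged proteins in the cytosol and nucleus. The 32 genes described here encode its subunits in Caenorhabditis elegans and were chosen by name from the 46928 gene rows of the count tables. They are 7 core alpha genes (pas-1 to pas-7), 7 core beta genes (pbs-1 to pbs-7), 6 base ATPase genes (rpt-1 to rpt-6) and 12 regulatory non-ATPase genes (rpn-1, rpn-2, rpn-3, rpn-5, rpn-6.1 and rpn-7 to rpn-13). RNA was sequenced from cells of L4 larvae, 4 libraries from wild-type (N2) animals and 4 from animals carrying skn-1gf(lax188), in which the transcription factor gene skn-1 bears an activating mutation (the mutant below). Animals of both genotypes carried daf-7p::gfp, in which the daf-7 promoter, active mainly in the ASI pair of sensory neurons, drives green fluorescent protein. The cell preparation describes digesting large synchronised cultures and sorting the cells, which the labels call neurons, while the extraction text speaks of homogenised animals. Each library pools many animals, and the libraries are named as biological replicates with no word on whether their cultures were separate. Where libraries share a culture, the p-values measure only technical spread.

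In the core particle, alpha subunits form the outer rings that gate the entry of substrates, and beta subunits form the inner rings that hold the proteolytic sites. The regulatory particle docks on the alpha ring, where its ATPases unfold substrates and its non-ATPase subunits bind ubiquitin, remove it and hold the particle together. In the worm, the endoplasmic reticulum form of SKN-1, SKN-1A, is known to activate proteasome subunit genes when proteasome function is impaired, after it has been deglycosylated by PNG-1 and cut by DDI-1.

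Total gene counts ran from 2976889 to 10740970 per library, and all 32 subunit genes passed the low-count filter, with between 143 and 4669 counts per gene and library. Wild-type replicate 2 stood apart from the other libraries on the first principal component, which held 46.6% of the variance (202 against −88.3 to 18.2). It also had the most counts on ribosomal RNA genes (32.8%, against 6.91 to 21.8% in the others), the fewest genes with a count (11909, against 14248 to 20394) and the lowest TMM factor (0.66). The part of RNA quality in its values was not tested. Neuronal markers took few counts, though shares of different lists also depend on how strongly their genes are expressed and do not measure cell numbers. The 8 ASI markers together took 0.00132 to 0.0195% of protein-coding counts and 6 of them were at 0 in at least 1 library (ins-6, gpa-4, gpa-5, str-2, str-3 and srd-1). Body wall muscle markers took 0.959 to 3.62%, and germline and oocyte markers 0.266 to 0.549%. The libraries thus hold RNA of several tissues, in which fewer cells of a type and less RNA per cell cannot be told apart.

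Transcripts of the proteasome subunits were abundant and moved together from library to library. Levels are given as CPM, gene counts scaled to a common library total with TMM (trimmed mean of M values), and lay between 45.5 CPM (pas-2 in mutant replicate 3) and 577 CPM (rpn-2 in wild-type replicate 2). The median subunit ranked at the 89.2nd percentile of mean CPM among the 12734 genes tested. The mean log2 CPM over the 32 genes was 6.96, 7.59, 6.62 and 7.32 in N2 replicates 1 to 4 and 6.83, 7.63, 6.80 and 6.999 in mutant replicates 1 to 4. With TMM scaling the replicate numbered 2 was the highest library of each genotype, and the 2 genotypes overlapped. For wild type this rank depended on the scaling. The subunits took 0.506, 0.445, 0.442 and 0.628% of all gene counts in N2 replicates 1 to 4, so replicate 4 was the highest. Of protein-coding counts they took 0.588, 0.7075, 0.504 and 0.703%. Mutant replicate 2 was the highest mutant library on both shares (0.767 and 0.841%). Among the mutant libraries replicate 2 was the highest for all 32 genes and for 36.6% of all genes tested. Among the wild-type libraries replicate 3 was the lowest for all 32 (29.3% of all genes), and replicate 2 was the highest for 23 of them (36.1% of all genes). In all 4 subunit classes the mean was highest in replicate 2 within each genotype, with core beta genes spanning the widest range (6.12 to 7.40) and regulatory non-ATPase genes the narrowest (6.96 to 7.86). The pattern was not particular to the subunits. Means of other proteasome-bound, SKN-1A maturation, substrate delivery and ubiquitin genes, described below, were highest among mutant libraries in replicate 2 (6.175, 6.697, 7.202 and 7.398). Among wild-type libraries they were lowest in replicate 3 (5.411, 6.169, 6.466 and 6.824). Their highest wild-type library was replicate 2 for the SKN-1A and ubiquitin lists and replicate 4 for the others.

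**Figure D1:**
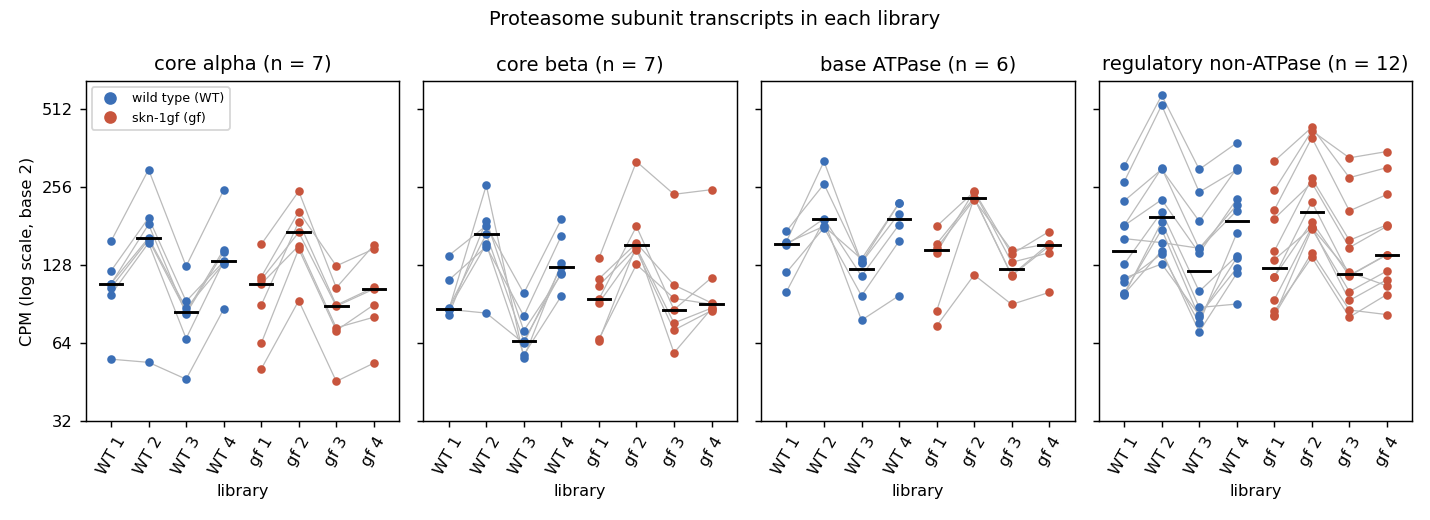
CPM of each proteasome subunit gene (points, log scale) in the 8 libraries, by subunit class, with the class median as a black bar. Grey lines join the values of 1 gene within a genotype and carry no order. In skn-1gf (gf) all 32 genes are highest in replicate 2, and in wild type (WT) all 32 are lowest in replicate 3.

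Most of the spread between replicates was shared by the subunits. The SD of log2 CPM within a genotype (n = 4 libraries in each) had a median of 0.43 over the 32 genes, against 0.93 over all genes tested. When each gene was expressed relative to the mean of the other 31 subunits in the same library, the median SD was 0.19, and it was smaller than the SD of the CPM values for 32 of 32 genes, as it was for 29.7% of all genes set against the same mean. The tightest gene was rpn-10, with a relative SD of 0.08, and the loosest was pbs-6, with 0.42. With both libraries numbered 2 left out, the relative SD was still the smaller for 28 of 32 genes, at a median of 0.15 against 0.29, and for 38.9% of all genes. These values describe how the genes moved in 8 libraries that also differed in their cells.

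Marker lists of tissues followed the subunits at most in part. Germline and oocyte markers, for cells of the gonad, had list means of 7.69, 7.83, 7.36 and 7.90 log2 CPM in N2 replicates 1 to 4 and 7.21, 8.15, 7.41 and 7.68 in mutant replicates 1 to 4, highest in mutant replicate 2 as the subunits were. Their highest wild-type library was replicate 4 and their lowest mutant library replicate 1, where for the subunits these were replicates 2 (with TMM) and 3. All 12 of these markers had counts in all 8 libraries. Intestine markers were lowest in mutant replicate 2 (4.38, against 6.15 to 7.65 in the other libraries), as were body wall muscle markers (9.12, against 9.83 to 11.1). Wild-type replicate 2, also high in the subunits with TMM scaling, had the opposite pattern. Its means were the highest in wild type for intestine (7.46, against 6.15 to 6.52) and muscle markers (10.77, against 9.83 to 10.27). Pan-neuronal markers were low in both libraries numbered 2 (3.72 and 3.75, against 4.24 to 6.44 in the others). Between the genotypes, positive log2 fold changes were found in 4 of 4 tested ASI markers, 9 of 12 pan-neuronal, 8 of 10 muscle, 7 of 10 intestine, 5 of 12 germline and oocyte, 2 of 9 hypodermis and 0 of 9 sperm markers. List means cover only tested markers, those that passed the low-count filter, which 4 libraries of 1 genotype can satisfy. For ASI these were 4 of the 8 listed, with means of 1.31 ± 1.04 log2 CPM in wild type and 3.00 ± 1.28 in the mutant (SD, n = 4 each). Wild-type values were low (0.0037 in replicate 2), and leaving out single libraries gave differences between 1.23 and 2.25. Sperm markers (9 tested of 12 listed) had list means of 4.62 ± 1.38 and 3.36 ± 1.45 (SD, n = 4 each). Their difference of −1.26 was −0.56 without mutant replicate 3 and −1.86 without wild-type replicate 3. Hypodermis markers (9 tested of 10 listed) had 4.51 ± 0.92 and 3.68 ± 1.05 (SD, n = 4 each). Their difference of −0.83 was −0.42 without wild-type replicate 2 and −0.33 without mutant replicate 2. The part of these cell types in the subunit levels was not tested.

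**Figure D2:**
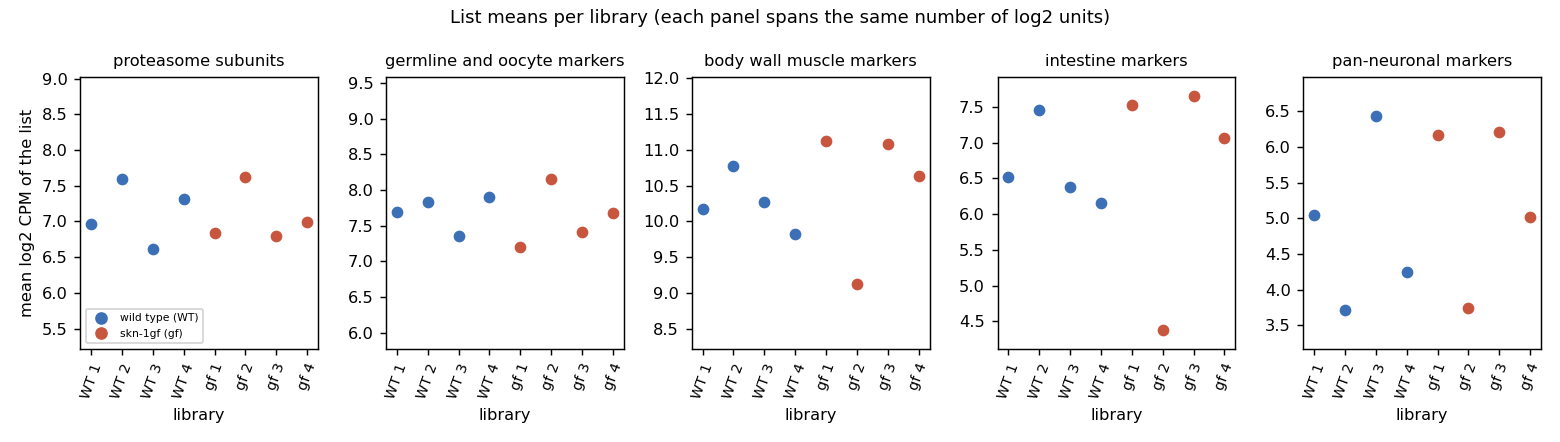
Mean log2 CPM per library of the 32 proteasome subunits and of 4 marker lists, with panels that span equal log2 ranges. The subunits and the germline and oocyte markers are highest in skn-1gf (gf) replicate 2, where intestine and muscle markers are lowest.

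No subunit passed the test for a difference between the genotypes. The edgeR quasi-likelihood test, adjusted by Benjamini-Hochberg over all 12734 genes, called 0 of 32 subunits and 0% of all genes (smallest adjusted p = 0.999989 among the subunits, edgeR). At an unadjusted p under 0.05 it held 0 of 32 subunits and 4.07% of all genes. DESeq2 called 0 subunits and 0.0124% of 24261 genes, and limma-voom 0 subunits and 0% of genes. In no subunit did all libraries of one genotype lie above all of the other in CPM, which 2.17% of all genes did. Log2 fold changes, given as mutant minus wild type, ran from −0.39 (pas-7) to 0.63 (pbs-1), and 31 of 32 were smaller than 0.4 in size.

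The data also bound how large a difference could be in the RNA of these mixed libraries, though not within any single cell type. The 95% confidence interval of the log2 fold change lay within a 2-fold difference in either direction for 27 of 32 subunits, against 20.8% of all genes. This number depended on the libraries. It was 16 without wild-type replicate 1, wild-type replicate 3 or mutant replicate 2, and 15 without wild-type replicate 4. It was 18 without mutant replicate 4, and 25 without wild-type replicate 2, mutant replicate 1 or mutant replicate 3. Over all genes the share ran from 11.2 to 22.7% in these settings. For 0 of 32 subunits did the interval lie within 1.5-fold. The subunits beyond the 2-fold bound were pas-3, pas-7 and pbs-6 on the lower side and pbs-1 and pbs-5 on the upper side. They are named after their values were seen.

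Subunits had slightly lower values in the mutant more often than higher ones, but which way most of them leaned turned with single libraries. A positive log2 fold change was found in 11 of 32 subunits (34.4%), against 53.7% of all genes, and the median was −0.12, against 0.04 over all genes. Without wild-type replicate 2 the number was 24 and the median 0.09, and without mutant replicate 2 they were 4 and −0.38. The number was also 18 without mutant replicate 1, 20 without mutant replicate 3, 4 without wild-type replicate 3 and 7 without wild-type replicate 1 or with both libraries numbered 2 left out. With libraries scaled by their total counts in place of TMM it was 7. The mean log2 CPM over the subunits was 7.12 ± 0.42 (SD, n = 4) in wild type and 7.06 ± 0.39 (SD, n = 4) in the mutant, a difference well inside either SD.

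**Figure D3:**
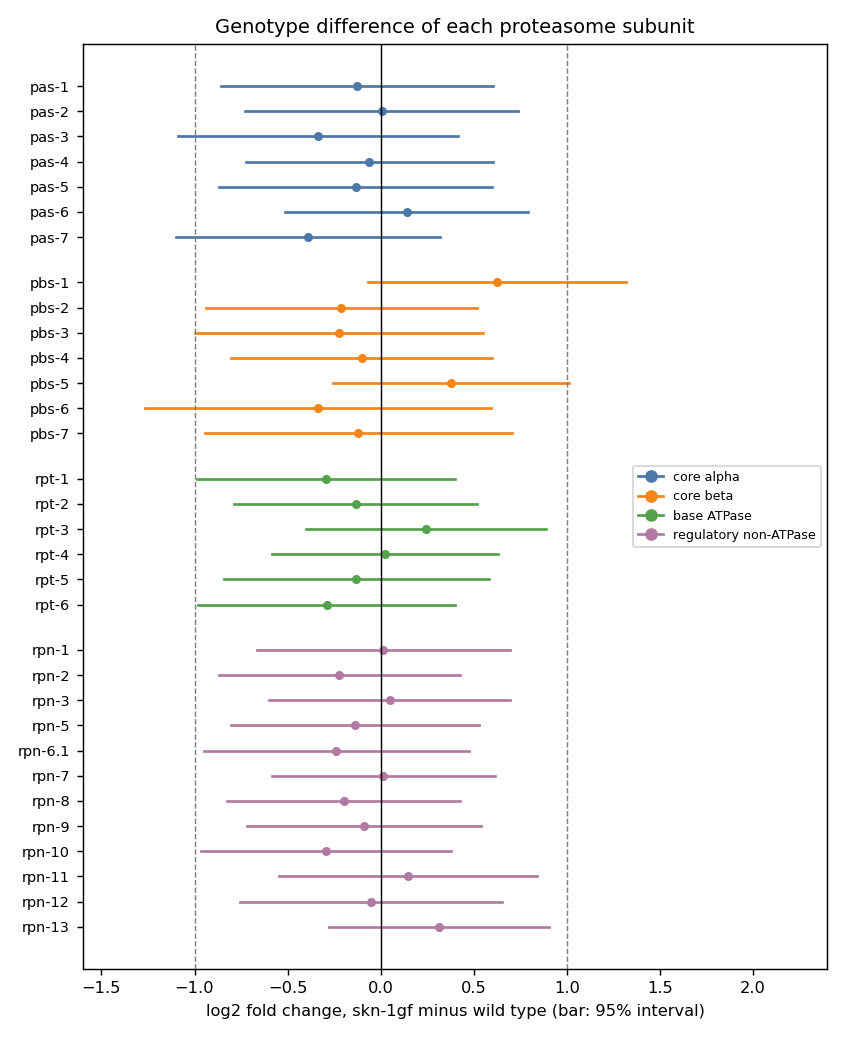
Log2 fold change of each subunit (skn-1gf minus wild type, point) with its 95% confidence interval from edgeR (bar), coloured by class; dashed lines mark a 2-fold difference. Every interval includes 0, and 27 of 32 lie between the dashed lines.

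Single libraries weighed heavily on single genes. With each library left out in turn, the log2 fold change moved by over 1.5 times or changed sign for 12 of the 13 subunits that the naming rule picked. The exception was pbs-1, which had the largest fold change, and a ratio is harder to pass from a large value. In log2 units pbs-1 ran from 0.43 to 0.87, a wider span than that of rpn-13 (0.13 to 0.45), which was counted as moved. The class medians given below moved alike. Without wild-type replicate 2 they were 0.07 (core alpha), 0.18 (core beta), 0.04 (base ATPase) and 0.09 (regulatory non-ATPase), and without mutant replicate 2 they were −0.38, −0.40, −0.38 and −0.30. They were also above 0 for every class without mutant replicate 1 (0.01 to 0.05) or mutant replicate 3 (0.02 to 0.07), so no class held a sign. All 4 were negative with both libraries numbered 2 left out (−0.25 to −0.12).

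The core alpha genes, for the gating rings, had a median log2 fold change of −0.13, with 2 of 7 positive and 0 called. The smallest p was that of pas-7 (CELE_ZK945.2), at 108.5, 163, 87.0 and 129.6 CPM in N2 replicates 1 to 4 and 63.8, 147, 71.5 and 89.8 CPM in mutant replicates 1 to 4. The genotypes overlapped, with 2 mutant libraries below every wild-type library and replicate 4 just above the lowest. The fitted log2 difference was −0.39 (SE 0.33, with a 95% confidence interval of −1.10 to 0.32), and ran from −0.71 without mutant replicate 2 to −0.19 without mutant replicate 1. The most abundant alpha transcript, pas-3 (CELE_Y110A7A.14), was at 158, 298, 126.5 and 248 CPM in wild type and 153.6, 246, 104.5 and 153 CPM in the mutant (log2 fold change −0.34, SE 0.35). In both genotypes its highest library was replicate 2 and its lowest replicate 3, and the fold change was −0.61 without mutant replicate 2 and −0.11 without wild-type replicate 2. For pas-6 (CELE_CD4.6) the values were 121, 194, 92.7 and 132 CPM and 115, 205.5, 127 and 147.5 CPM (log2 fold change 0.14, SE 0.30). The genotypes overlapped in part, and the fold change ran from −0.066 to 0.37 with libraries left out.

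The core beta genes include those of the 3 proteolytic sites, which by homology with yeast and mammals are pbs-1 (caspase-like), pbs-2 (trypsin-like) and pbs-5 (chymotrypsin-like). The class had a median log2 fold change of −0.12, with 2 of 7 positive and 0 called, and both positive genes were catalytic. Its mean log2 CPM had the other sign than its median, at 6.77 ± 0.54 in wild type and 6.81 ± 0.40 in the mutant (SD, n = 4 each). The smallest p of all 32 subunits was that of pbs-1 (CELE_K08D12.1), at 139, 181, 99.5 and 192 CPM in N2 replicates 1 to 4 and 136, 320.4, 239.6 and 249.7 CPM in mutant replicates 1 to 4. In the mutant, 3 libraries lay above every wild-type library and replicate 1 lay among them. The fitted log2 difference was 0.63 (SE 0.32, with a 95% confidence interval of −0.07 to 1.32), with an unadjusted p of 0.0724 and an adjusted p of 0.999989 in edgeR. With single libraries left out it ran from 0.43 without mutant replicate 2 (unadjusted p = 0.188 in edgeR) and 0.47 without wild-type replicate 3 (unadjusted p = 0.192 in edgeR) to 0.87 without mutant replicate 1, the overlapping library (unadjusted p = 0.0107 and adjusted p = 0.999461 in edgeR).

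The second positive beta gene was pbs-5 (CELE_K05C4.1), at 86.3, 83.5, 63.9 and 126 CPM in wild type and 113, 155, 107 and 91.3 CPM in the mutant (log2 fold change 0.38, SE 0.29, 95% confidence interval −0.26 to 1.01). Wild-type replicate 4 lay above 3 of the mutant libraries, so the genotypes overlapped, and the fold change was 0.20 without mutant replicate 2 and 0.59 without wild-type replicate 4. The third catalytic gene, pbs-2 (CELE_C47B2.4), was at 87.6, 168, 65.2 and 119.4 CPM in wild type and 66.3, 128.5, 95.1 and 90.2 CPM in the mutant, lower on average in the mutant (log2 fold change −0.21, SE 0.34, and 0.070 without wild-type replicate 2). A structural subunit, pbs-6 (CELE_C02F5.9), had 85.6, 259.5, 56.1 and 130 CPM in wild type and 107, 149.5, 76.5 and 87.2 CPM in the mutant. Its wild-type mean rested on replicate 2, without which the log2 fold change went from −0.34 (SE 0.43) to 0.22.

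The base ATPase genes, for the ring that unfolds substrates, had a median log2 fold change of −0.13, with 2 of 6 positive and 0 called, and all 6 intervals lay within a 2-fold difference. For rpt-1 (CELE_C52E4.4) the levels were 157.5, 321, 131 and 221 CPM in wild type and 149, 228, 146 and 155 CPM in the mutant (log2 fold change −0.29, SE 0.32). For rpt-6 (CELE_Y49E10.1) they were 101, 190.3, 78.4 and 97.4 CPM and 74.4, 117, 90.2 and 100.3 CPM (log2 fold change −0.29, SE 0.32). In both genes wild-type replicate 2 was the highest library and the other libraries of the genotypes overlapped. Without that library the log2 fold change was −0.0052 for rpt-1 and 0.046 for rpt-6. The ATPase gene rpt-3 (CELE_F23F12.6) leaned the other way, at 119.7, 178, 97.4 and 158 CPM and 154, 232.5, 116 and 151 CPM (log2 fold change 0.24, SE 0.30). It was 0.015 without mutant replicate 2 and 0.11 without wild-type replicate 3.

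The regulatory non-ATPase genes had a median log2 fold change of −0.07, with 5 of 12 positive and 0 called, and all 12 intervals lay within a 2-fold difference. Among them are genes of ubiquitin receptors, rpn-10, rpn-13 and rpn-1, the last of which is known as a receptor from yeast. For rpn-13 (CELE_C56G2.7) the levels were 114, 129, 81.9 and 124.5 CPM in wild type and 115, 188, 116 and 140.0 CPM in the mutant (log2 fold change 0.31, SE 0.27). For rpn-10 (CELE_B0205.3) they were 99.7, 175, 80.6 and 136 CPM and 84.8, 137, 80.5 and 98.4 CPM (log2 fold change −0.30, SE 0.31). Both genes had overlapping genotypes in CPM, and the fold changes were 0.13 for rpn-13 without mutant replicate 2 and −0.074 for rpn-10 without wild-type replicate 2. For rpn-1 the log2 fold change was 0.01 (SE 0.31), and 0.32 without wild-type replicate 2. The scaffold gene rpn-2 (CELE_C23G10.4), with the highest mean CPM of the subunits over the 8 libraries, was at 307, 577, 299 and 378 CPM and 322, 434, 278 and 304 CPM (log2 fold change −0.22, SE 0.30, and 0.021 without wild-type replicate 2). For rpn-11, which encodes the deubiquitinase of the lid, the log2 fold change was 0.15 (SE 0.32), and −0.11 without mutant replicate 2. For rpn-6.1, a lid subunit known for its link to longevity in germline-less worms, it was −0.24 (SE 0.33), and 0.087 without wild-type replicate 2. The genes rpn-1, rpn-11 and rpn-6.1 lay outside the naming rule and were chosen for their roles.

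Because the subunits shared most of their spread, differences within the complex could be read more finely than differences in CPM. The level of each gene relative to the mean of the other 31 subunits in its library is given in log2 units as a description, with no test. On this scale all libraries of one genotype lay beyond all of the other in 4 of 32 subunits (12.5%), against 3.15% of all genes set against the same mean. The count moved with the libraries. It was again 4 (12.5%) without wild-type replicate 3, mutant replicate 3 or mutant replicate 4, against 6.05, 4.1 and 5.71% of all genes. It was 5 (15.6%) without wild-type replicate 1 or mutant replicate 2, against 3.99 and 9.33%. It was 6 (18.8%, against 7.85%) without wild-type replicate 2, 8 (25.0%, against 4.46%) without wild-type replicate 4 and 9 (28.1%, against 5.36%) without mutant replicate 1. With both libraries numbered 2 left out it was 7 (21.9%, against 18.1%). Fewer libraries separate more easily, and in the last of these settings the share was near that of genes in general. The 4 genes are named after their values were seen.

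Of these, rpt-3 was at −0.06, −0.11, −0.01 and −0.01 in N2 replicates 1 to 4 and at 0.45, 0.24, 0.07 and 0.25 in mutant replicates 1 to 4. The ubiquitin receptor gene rpn-13 was at −0.13, −0.59, −0.26 and −0.37 in wild type and 0.02, −0.07, 0.07 and 0.14 in the mutant. Both lay higher in every mutant library, by 0.30 and 0.38 on average. In the other direction, pas-7 was at −0.20, −0.25, −0.17 and −0.31 in wild type and −0.86, −0.43, −0.65 and −0.52 in the mutant. Another ubiquitin receptor gene, rpn-10, was at −0.33, −0.14, −0.29 and −0.23 in wild type and −0.44, −0.54, −0.47 and −0.39 in the mutant. These were lower in every mutant library, by 0.38 and 0.21 on average (differences −0.38 and −0.21). In all 4 genes the gap between the genotypes was smaller than the range within either of them, at 0.08 for rpt-3, 0.06 for rpn-13, 0.125 for pas-7 and 0.06 for rpn-10.

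The largest relative difference was that of pbs-1, at 0.16, −0.09, 0.03 and 0.28 in wild type and 0.26, 0.72, 1.15 and 1.00 in the mutant. The mean was 0.10 ± 0.16 (SD, n = 4) in wild type and 0.78 ± 0.39 (SD, n = 4) in the mutant, a difference of 0.69 (0.56 to 0.86 with each library left out in turn). The genotypes overlapped because mutant replicate 1 (0.26) lay below wild-type replicate 4 (0.28). For pbs-5 the relative means were −0.69 ± 0.38 and −0.23 ± 0.24 (SD, n = 4 each), with overlap. The lowest wild-type library for pbs-5 was replicate 2 (−1.24).

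**Figure D4:**
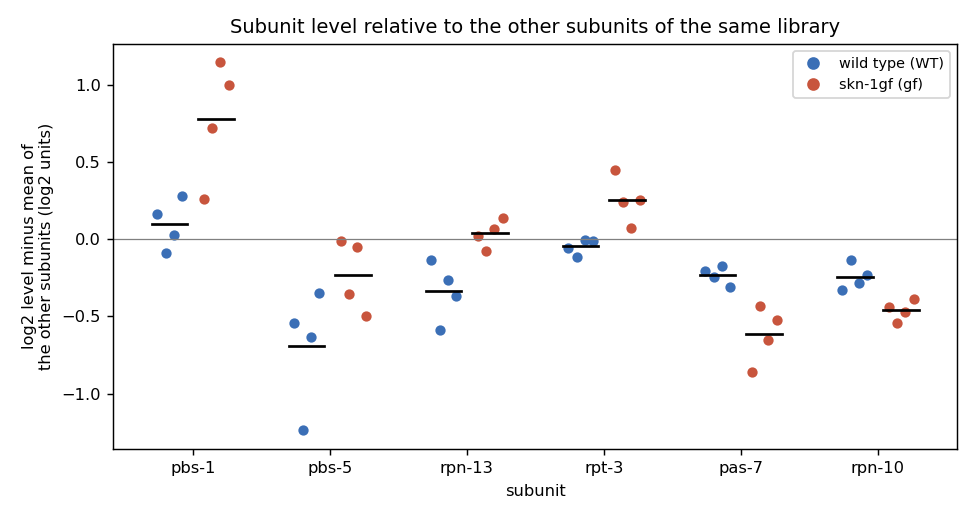
Log2 level of 6 subunits relative to the mean of the other 31 subunits of the same library (points, 4 libraries per genotype; black bars, means). In rpn-13, rpt-3, pas-7 and rpn-10 the genotypes do not overlap, and in pbs-1 skn-1gf replicate 1 lies below the highest wild-type library.

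Per kilobase of coding length the subunits lay closer together than in CPM. Mean levels over the 8 libraries ran from 268 CPM per kb (pbs-1) to 81.5 CPM per kb (rpn-6.1), a ratio of 3.29, although coding lengths ran from 606 to 2943 bp. The scaffold genes rpn-2 and rpn-1, first and second in mean CPM over the 8 libraries but in the other order in the mutant (334 and 338 CPM), were at 125 and 114 CPM per kb on this scale, ranks 20 and 27 of 32. The mean ± SD ranges of neighbours in the order overlapped, though these SDs hold spread that the genes share. Compared within libraries, in none of the 31 adjacent pairs was the upper gene higher in all 8, and pas-3 was above pbs-1 in all 4 wild-type libraries but below it in 3 of 4 mutant ones. In wild type pas-3 had the highest mean (277 ± 106 CPM per kb, SD, n = 4), and in the mutant pbs-1 had (326 ± 105 CPM per kb, SD, n = 4), where it had been at 211 ± 58.4 CPM per kb in wild type (SD, n = 4). At the low end rpn-6.1, rpt-6 and pas-2 held mean levels of 81.5, 85.0 and 87.5 CPM per kb.

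By class, the median level per kilobase was 163 ± 45.3 CPM per kb for core alpha, 155 ± 71.7 for core beta, 127.9 ± 26.5 for base ATPase and 127.9 ± 36.8 for regulatory non-ATPase genes in wild type (SD, n = 4 libraries). In the mutant the same values were 156 ± 47.6, 148 ± 45.4, 128.4 ± 37.4 and 126 ± 31.3 CPM per kb (SD, n = 4 libraries). In both genotypes the core classes had the higher means, and all 4 classes overlapped. The mean level of the 14 core genes divided by that of the 18 regulatory genes was 1.22, 1.36, 1.13 and 1.34 in N2 replicates 1 to 4 and 1.27, 1.35, 1.27 and 1.28 in mutant replicates 1 to 4. The ratio was above 1 in all 8 libraries, also per kilobase of exon (1.09 to 1.31) or of gene span (1.18 to 1.415), and the genotypes overlapped fully in this ratio (1.26 ± 0.11 and 1.29 ± 0.04, SD, n = 4 each).

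**Figure D5:**
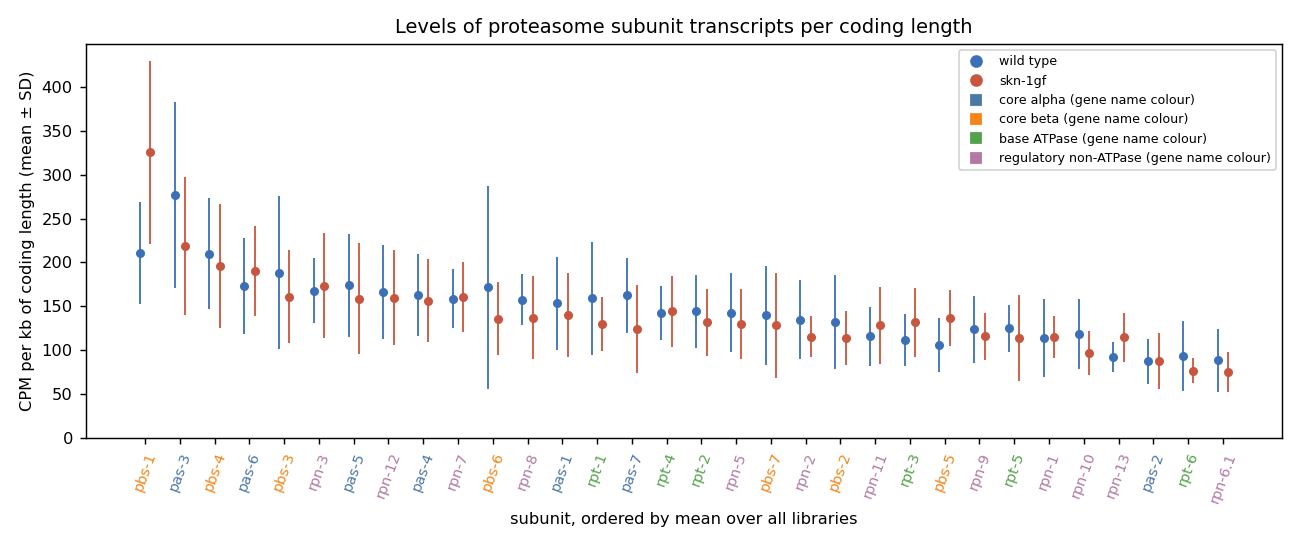
Mean level per kilobase of coding length (± SD over 4 libraries) of each subunit in wild type and skn-1gf, ordered by the mean over all 8 libraries, with gene names coloured by class. Levels run from 268 (pbs-1) to 81.5 CPM per kb (rpn-6.1), and the bars of neighbouring genes overlap.

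None of the 36 tested genes around the proteasome passed the test either. Of 8 other subunit and proteasome-bound genes, 0 were called in edgeR, with 1 positive and 7 negative log2 fold changes and a median of −0.12, which was 0.01 without wild-type replicate 2 and −0.55 without mutant replicate 2. The smallest p in this list was that of dss-1, which encodes a small acidic lid subunit, at 64.9 ± 13.9 CPM in N2 and 47.8 ± 14.6 CPM in the mutant (SD, n = 4 each; log2 fold change −0.44, SE 0.32, and −0.68 without mutant replicate 2). For psme-3, whose mammalian counterpart is a nuclear proteasome activator, wild-type replicate 2 was at 67.5 CPM and the other wild-type libraries at 18.6 to 23.2 CPM (log2 fold change −0.47, SE 0.53, and 0.15 without that library).

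The 6 genes for SKN-1A and its maturation had a median log2 fold change of 0.02, with 3 positive, 3 negative and 0 called in edgeR (median 0.11 without wild-type replicate 2 and −0.10 without mutant replicate 2). The mutated gene itself, skn-1, averaged 295 ± 108 CPM in N2 and 307 ± 68.6 CPM in the mutant (SD, n = 4 each; log2 fold change 0.06, SE 0.31). Wild-type replicate 2 was the highest library for skn-1 (452 CPM), and without it the log2 fold change was 0.31, while it was −0.081 without wild-type replicate 4. The peptide N-glycanase gene png-1, whose enzyme edits SKN-1A, was at 23.6, 81.6, 22.7 and 27.9 CPM in wild type and 18.9, 26.6, 21.6 and 25.8 CPM in the mutant. Its log2 fold change of −0.74 (SE 0.48) rested on wild-type replicate 2 and was −0.10 without it. For the protease gene ddi-1 the log2 fold change was −0.12 (SE 0.30), with a range of −0.31 to 0.054 over single libraries left out. The genes skn-1 and ddi-1 were named for their roles. The gene sel-9, for a p24 cargo protein, was at 47.0 ± 14.3 and 61.8 ± 17.7 CPM (SD, n = 4 each; log2 fold change 0.40, SE 0.34, and 0.19 without mutant replicate 2).

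Of 10 genes that deliver substrates, among them those of the segregase CDC-48 and its partners, 2 were positive, 8 negative and 0 called in edgeR (median log2 fold change −0.06, which was 0.04 without wild-type replicate 2 or −0.29 without mutant replicate 2). The shuttle factor gene ubql-1 was at 147, 107, 126.5 and 134 CPM in wild type and 152, 187, 167 and 145 CPM in the mutant (log2 fold change 0.34, SE 0.24), with replicate 1 of wild type just above the lowest mutant library. For npl-4.2, for a CDC-48 cofactor, the means were 30.2 ± 9.68 and 21.1 ± 10.6 CPM (SD, n = 4 each; log2 fold change −0.51, SE 0.46, and −0.29 without wild-type replicate 2 or −0.94 without mutant replicate 2). Of 12 matched genes for ubiquitin and its activation and conjugation, 7 were positive, 5 negative and 0 called in edgeR (median 0.03, and 0.12 without wild-type replicate 2 or −0.09 without mutant replicate 2). The conjugating enzyme gene ubc-3 was at 78.9, 76.8, 72.7 and 77.9 CPM in wild type and 94.1, 80.4, 107 and 96.9 CPM in the mutant, higher in every mutant library, the single such gene among these 36 against 2.17% of all genes (log2 fold change 0.30, SE 0.24, 95% confidence interval −0.22 to 0.83). A second conjugating enzyme gene, ubc-18, was at 136 ± 41.9 and 106 ± 44.0 CPM (SD, n = 4 each; log2 fold change −0.37, SE 0.34, and −0.70 without mutant replicate 2 or −0.16 without mutant replicate 1).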

How the data were processed

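The authors deposited raw gene counts as whole numbers for each library, which were taken unaltered. Named in the submitters' processing notes, without roles, are ce10 as build and the tools HTSeq 2.0.2, STAR 2.7.6a, R 3.5.2 and DESeq2. Strand setting, annotation release and duplicate handling were not given in the sources used. The summary lines at the end of each file entered neither library sizes nor tests. Reads without a feature made up 2.77 to 14.4%, and ambiguous ones 1.48 to 2.62%, of the uniquely aligned reads.

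Locus tags were matched to RefSeq symbols of WBcel235 (46919 of 46928; all 32 subunits; ubc-2 and ubl-1 of the wider lists were not matched). Coding lengths (longest coding sequence per gene, Ensembl release of WBcel235) were used as lengths only and no coordinates are given, since the builds carry different names. In that annotation exons of 10 subunit genes overlapped a gene on the other strand and those of 1 a gene on the same strand, by at most 394 bp (rpn-7), and such reads cannot be told apart without the strand setting. Sequences were not analysed here.

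The genotype effect was fitted by edgeR 4.0.16 under R 4.3.3 (glmQLFit, glmQLFTest) with no covariate, with TMM scaling, filterByExpr (minimum count 10, minimum total 15) and Benjamini-Hochberg adjustment over the 12734 genes kept, at a threshold of 0.05. The step was also run on counts simulated at a fixed dispersion, set below that of these libraries (common biological coefficient of variation 0.71). That run therefore does not show how the step performs on data this variable. Log2 CPM used a prior count of 2. Relative levels subtract the mean log2 CPM of the other subunits. Alternatives were DESeq2 1.42.0 without the filter, limma-voom (limma 3.58.1), other scalings, filters, the replicate block, protein-coding genes only and each library left out.

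The members, lists and rules were chosen with earlier results of these data known. Named genes were, in each class, the 3 with the smallest p, the catalytic beta genes, any called or fully separated subunit, and the 2 smallest p of each wider list. Cell type lists are those for ASI, pan-neuronal, body wall muscle, intestine, germline and oocyte, sperm and hypodermis markers.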

Additional observations from a re-analysis of the deposited data

Results flagged for a closer look

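In 12 of 162 checks, 1 library lay far from the other 3 of its genotype by Dixon's gap ratio, where chance gives about 5% of them. The checks share libraries. Replicate 2 of skn-1gf was the far library for rpn-6.1 (ratio 0.934; 143 against 81.8 to 85.8 CPM), rpt-1 (0.891; 228 against 146 to 155 CPM), pas-5 (0.844; 188 against 89.5 to 105 CPM), pas-2 (0.832; 93.2 against 45.5 to 53.5 CPM) and rpn-3 (0.8293; 396 against 207 to 239 CPM). It was also far for npl-4.2 (0.88; 36.9 against 14.2 to 16.9 CPM) and for the ratio of core to regulatory levels per kilobase (0.884; 1.35 against 1.27 to 1.28). Replicate 2 of wild type was the far library for rpn-6.1 (0.896; 187.5 against 87.7 to 98.1 CPM), png-1 (0.913; 81.6 against 22.7 to 27.9 CPM), psme-3 (0.905; 67.5 against 18.6 to 23.2 CPM) and the relative level of rpn-7 (0.937; 0.26 against 0.54 to 0.56 log2 units). The relative level of rpn-9 was low in wild-type replicate 4 (0.853; −0.21 against 0.05 to 0.10 log2 units).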

How the results depend on the processing

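No subunit was called under any alternative run, in any of DESeq2, limma-voom, the scalings, filters, replicate block, protein-coding genes only or with libraries left out. Over all genes, DESeq2 called 3 genes and edgeR without a low-count filter 159, against 0 in the main analysis. No general pairing by replicate number was seen. Deviations of same-numbered libraries correlated at −0.01, 0.06, 0.51 and 0.06 across genes, and 1 of 4 numbers, replicate 3, correlated best with its own. Such correlations cannot exclude a shared culture or batch. With the replicate number as a block 0 genes were called and the median log2 fold change of the subunits was −0.12 (10 positive). Total-count scaling moved the median of all genes by −0.16 and left 7 positive subunits; relative to all genes the subunit median was −0.04, against −0.16 with TMM. Positive subunits numbered 7 with both libraries numbered 2 left out (chosen after seeing the data) and 4 to 24 with single libraries left out, over which the subunit median ran from −0.38 to 0.09. The sign changed in 4 to 15 of the 32 subunits in each of these settings, most without wild-type replicate 2. Among the genes that the naming rule picked it turned for pas-6 (−0.066 to 0.37), pbs-2 (−0.40 to 0.070), pbs-6 (−0.59 to 0.22), rpt-6 (−0.44 to 0.046), rpn-2 (−0.38 to 0.021) and psme-3 (−0.86 to 0.15), and among those named for their roles for rpn-1 (−0.12 to 0.32), rpn-6.1 (−0.48 to 0.087), rpn-11 (−0.11 to 0.35), skn-1 (−0.081 to 0.31, and −0.012 with total-count scaling) and ddi-1 (−0.31 to 0.054). None of them was called. Gene span in place of coding length gave levels of 105 (core alpha), 90.7 (base ATPase) and 91.5 (regulatory non-ATPase) CPM per kb; the spans include introns. Protein lengths and a promoter motif search, both planned, were not run, as no sequences were used here. Depth limited little, with at least 143 counts per subunit and library, while the spread between libraries set the intervals.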
